A study of Mus musculus with 158 samples.

Results

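Among 86 single astrocytes from primary cultures of mouse cortex, 28 held much RNA of 6 genes of dividing cells and 35 held almost none, and these 63 cells, of 158 libraries in the series, are described here. The 6 genes were Mki67, Top2a, Ccna2, Ccnb1, Ccnb2 and Cdk1, and their counts, per 1000000 counts of the library (CPM), were summed in each cell. The groups were chosen by these sums alone. A cell with a sum of 200 CPM or more is called dividing and a cell with a sum below 20 CPM is called resting. The other 23 astrocytes were left out. All cells came from untreated cultures and were collected one by one with a patch pipette, and sequencing followed 3 rounds of linear (aRNA) amplification. The labels give the strain as C57/BL6/N for the cells cultured for 12, 14 or 15 days and as C57/BL6 for the 3 cells cultured for 7 days, so that this age and this strain label cannot be told apart. They name no animal, donor or culture, so each group counts as 1 sample, no test is given, and the spread shown is that between cells.

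Astrocytes are the glial cells that take up glutamate and supply neurons with metabolites, and in culture many of them return to the cell cycle. A cell that enters the cycle makes the enzymes of DNA synthesis first, under transcription factors of the E2F family, and later the proteins of the spindle, the kinetochore and the breakdown of mitotic regulators, under the MuvB-based complexes with B-Myb and FoxM1. The RNA of most of these proteins is scarce outside the cycle, which is why the 6 genes above serve as marks of division. Mki67 is a coat protein of mitotic chromosomes, Top2a untangles sister DNA, and the other 4 are the cyclins of the later cycle and the kinase they bind.

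The 6-gene sum ran from 211 to 11606 CPM in the dividing cells (median 1196) and from 0 to 18.1 CPM in the resting cells (median 2.05). Just inside the limits lay dividing cells at 211 and 229 CPM and resting cells at 18.1 and 14.5 CPM, and just outside lay left-out cells at 197 and 185 CPM and at 32.1 and 33.5 CPM. All 3 cells of 7 days were dividing. Of the 70 cells of 12 days, 21 were dividing and 32 resting. Of the 5 cells of 14 days none was dividing and 1 was resting, and of the 8 cells of 15 days 4 were dividing and 2 resting. The main counts are therefore also given for the cells of 12 days alone. These values chose the groups and are given as a description. In what follows, dividing 1 is the dividing cell with the highest sum and dividing 28 that with the lowest, and the resting cells are numbered likewise.

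**Figure D1:**
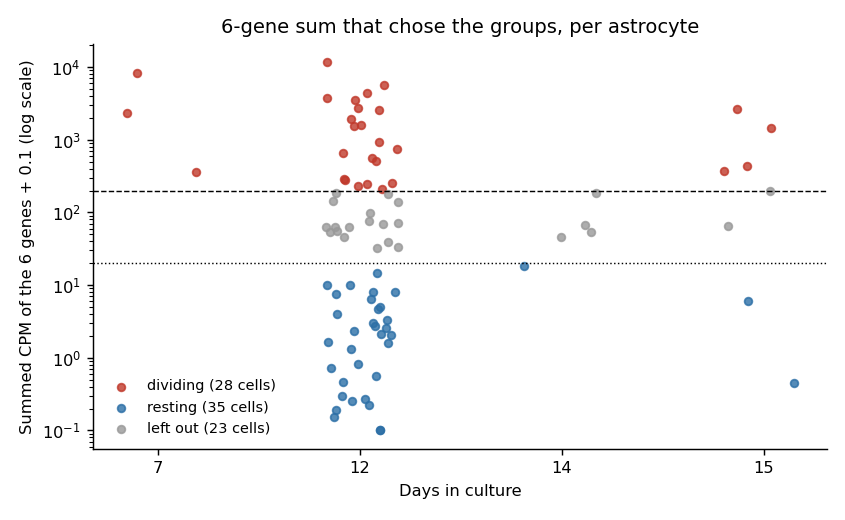
Summed CPM of Mki67, Top2a, Ccna2, Ccnb1, Ccnb2 and Cdk1 (vertical axis, log scale, 0.1 CPM added) in each of 86 cultured cortical astrocytes by days in culture; each point is a cell, and the dashed and dotted lines are the limits of 200 and 20 CPM. The cells of 12 days spread from 0 to 11606 CPM, with 17 of 70 between the limits.

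The sum did not rest on the same breadth of genes in every dividing cell. A gene was called detected in a cell that had at least 5 counts of it after the library was thinned to 1000000 counts. All 6 genes were detected in 14 of the 28 dividing cells and at least 3 in 23 cells. The other 5 dividing cells, all of 12 days, had only 1 or 2 of the 6. Nearly all of the sum came from Top2a in dividing 16 (sum 752 CPM), from Ccnb1 in dividing 23 (289 CPM) and from Ccnb2 in dividing 18 (564 CPM, 98.3% of it Ccnb2). Of the resting cells 26 had none of the 6 detected and 9 had 1.

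Other cell-cycle genes, which the rule did not use, separated these cells further. Of 104 genes of mitosis and cytokinesis, the dividing cells had 8 to 103 detected (median 67.5) and the resting cells 5 to 30 (median 12). Above the highest resting cell lay 21 of the 23 dividing cells with at least 3 of the 6 genes, but only 1 of the 5 with fewer. Those 5 cells had 8, 15, 16, 18 and 32 mitosis genes detected, so in 4 of them the mitosis genes go against the name dividing. Of 62 genes of DNA replication, the dividing cells had 0 to 58 detected (median 32) and the resting cells 0 to 22 (median 7), with 18 dividing cells above the highest resting cell.

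**Figure D2:**
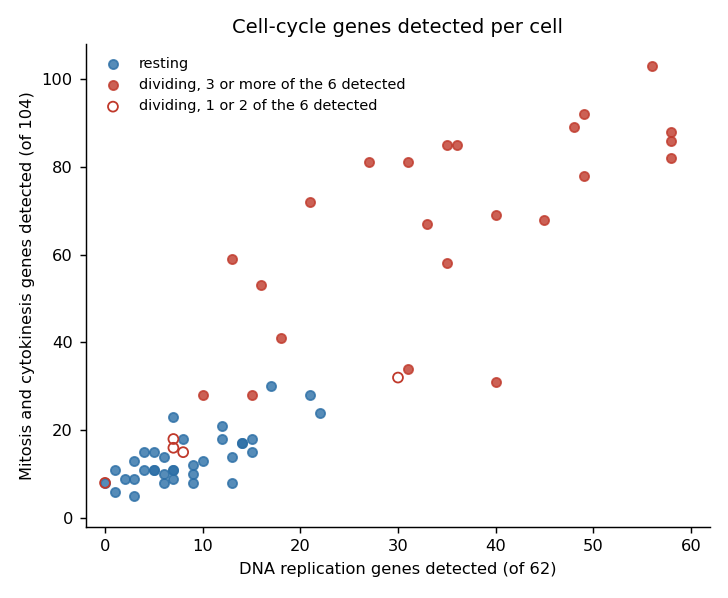
Number of DNA replication genes (horizontal axis, of 62) and of mitosis and cytokinesis genes (vertical axis, of 104) detected in each of 28 dividing and 35 resting astrocytes. Open circles are the 5 dividing cells with 1 or 2 of the 6 choosing genes detected, 4 of which lie among the resting cells.

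The dividing cells also differed from each other in which cell-cycle genes they held. Dividing 24 had 31 replication genes detected and 17387 CPM on that list, the most of any cell. It also had 34 mitosis genes with 11013 CPM on that list, and a 6-gene sum of only 283 CPM. Dividing 1 held less on the replication list and more on the mitosis list. It had 21 replication genes and 1917 CPM on them, against 72 mitosis genes and 26006 CPM. In all, 2923 genes were detected in dividing 24 and 3846 in dividing 1, beside a median of 6208 in dividing cells. Dividing 5, 9 and 11 each had 58 of 62 replication genes detected and 82 to 88 of 104 mitosis genes. Dividing 16 had no replication gene and 8 mitosis genes detected.

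Libraries of both groups were about equally deep, with 2102584 to 26853307 counts in dividing cells (median 15099945) and 1089796 to 31668048 in resting cells (median 14065172). They differed in breadth. At 1000000 counts, 2653 to 8933 genes were detected in a dividing cell (median 6208) and 1321 to 7380 in a resting cell (median 4191), and the 50 most abundant genes held a median of 15.8% of the counts against 19.7%. The number of detected genes thus moves with the groups and favours higher detection in dividing cells for genes in general. Its part in the results was not tested, and the main counts are given also for the 19 dividing and 21 resting cells with 4000 to 7500 detected genes. Within these limits the dividing cells still had the higher median number of detected genes, so breadth was not matched.

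A gene was counted as higher (or lower) in dividing cells where summed CPM and the average CPM per cell both differed at least 2-fold (a pseudocount of 1 CPM was added) and the share of cells in which it was detected differed by at least 20 percentage points in the same direction. Of 15942 measured genes, 983 (6.17%) were higher and 9 (0.0565%) were lower. Among the 12-day cells, 934 of 15334 (6.09%) were higher and 30 (0.196%) lower. In both comparisons, which share the 12-day cells, 740 genes were higher and 7 lower. Among cells with 4000 to 7500 detected genes, 788 of 14685 (5.37%) were higher and 117 (0.797%) lower. Without the rule on detection, 2275 genes (14.3%) were at least 2-fold higher and 1548 (9.71%) at least 2-fold lower. The number of lower genes thus changed with the rule on detection and with the cells taken. The causes were not tested.

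**Figure D3:**
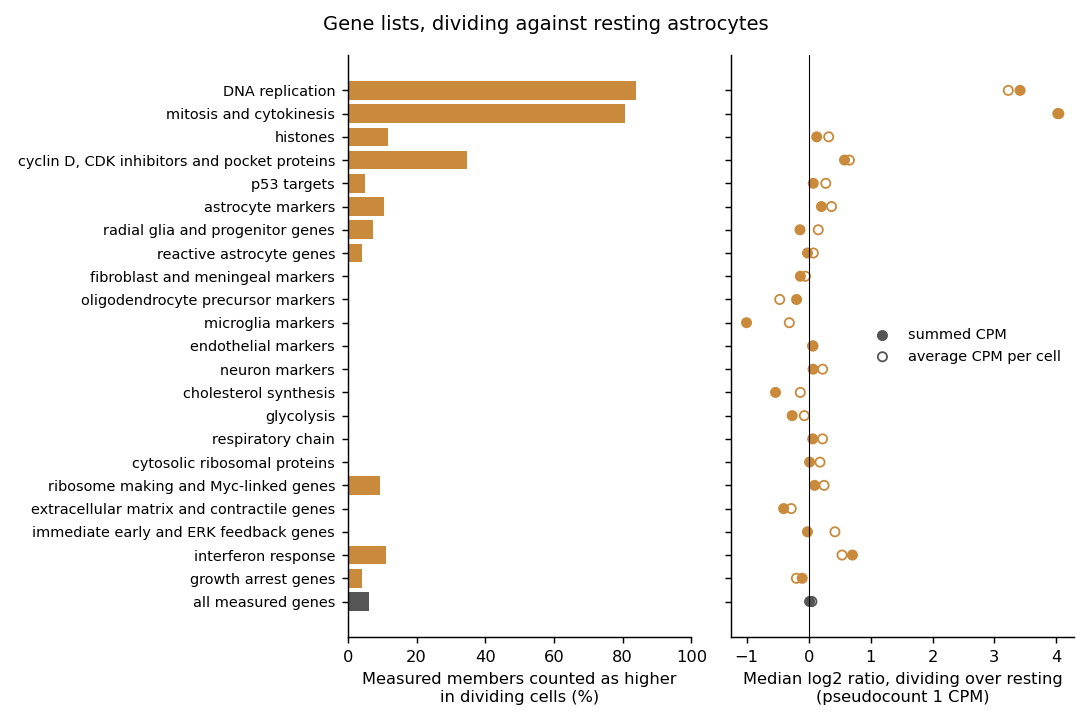
Gene lists compared between 28 dividing and 35 resting astrocytes: the percentage of measured members counted as higher in dividing cells (left) and the median log2 ratio of dividing over resting (right; filled points, summed CPM; open points, average CPM per cell). The replication and mitosis lists reach 83.9% and 80.8% with medians of 3.41 and 4.04, and no other list passes 35%.

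DNA replication genes were higher as a group. Of 62, all measured, 52 were counted as higher and none as lower (51 higher among the 12-day cells), and the median log2 ratio of summed CPM was 3.41 against 0.02 for all measured genes. The same count was 52 among cells with 4000 to 7500 detected genes and 54 without the 5 dividing cells that had at most 2 of the 6 genes. The genes named first are among those with the largest difference in detected share, which were higher in both comparisons. Rrm2, the subunit of ribonucleotide reductase whose supply follows the S phase, had 567 CPM in dividing cells (95% Poisson interval 565 to 569, counting error only) and 3.96 CPM in resting cells (3.79 to 4.14). Single dividing cells held 0 to 4036 CPM of it (median 109) and resting cells 0 to 45.9 CPM (median 0.062), and 19 of the 28 dividing cells lay above every resting cell. It was detected in 23 of 28 dividing and 4 of 35 resting cells, with a log2 ratio of 6.84, which was 6.08 without dividing 13, its highest cell.

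Components that open and prime the DNA behaved alike. Mcm2, a subunit of the replicative helicase, was detected in 16 of 28 dividing cells and 1 of 35 resting cells, with 38.3 CPM (37.7 to 38.9) against 0.208 CPM (0.169 to 0.253). Its highest resting cell had 3.40 CPM, and 17 dividing cells lay above that. Prim1, the primase subunit that starts each new strand, was detected in 15 of 28 dividing cells and in 0 of 35 resting cells, which allows a share of up to 8.57% (3 of 35 cells), with 78.5 CPM against 0.142 CPM. Pola2, its partner in the DNA polymerase alpha complex, was detected in 16 dividing cells and 1 resting cell, at 22.4 and 1.37 CPM.

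Lig1, the ligase that joins the fragments of the lagging strand, was detected in 18 of 28 dividing and 2 of 35 resting cells, at 92.9 and 0.733 CPM. All 5 of these genes had a median of 0 CPM in resting cells except Rrm2, and each was absent from the counts of at least 1 dividing cell. The 12-day cells gave like values, with log2 ratios of 3.92 for Pola2, 5.02 for Mcm2, 5.46 for Lig1, 6.24 for Prim1 and 7.97 for Rrm2.

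Other members of the list were also well represented in resting cells. Pcna, the sliding clamp of the polymerases, was detected in 26 of 28 dividing and 25 of 35 resting cells, and the difference was in level, at 883 against 180 CPM (log2 ratio 2.29). Mcm6 had 504 against 86.6 CPM, and Rrm1, the larger subunit of ribonucleotide reductase, 334 against 48.1 CPM. Tyms, thymidylate synthase, had 95.3 against 1.72 CPM. The 10 replication genes not counted as higher were Gins1, Gins4, Pold2, Rpa1, Rpa3, Dna2, Dut, Dctpp1, Ccne1 and E2f1, with log2 ratios of 0.55 (Rpa3) to 4.67 (Ccne1), all above 0. Rpa1, which coats single-stranded DNA, was detected in 25 dividing and 31 resting cells at 530 and 359 CPM. E2f1 had 11.7 CPM in dividing and 7.34 CPM in resting cells.

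Genes of mitosis and cytokinesis were higher to much the same extent. Of 104, all measured, 84 were counted as higher and none as lower (82 higher among the 12-day cells), with a median log2 ratio of 4.04. The count was 83 among cells with 4000 to 7500 detected genes and 86 without the 5 dividing cells with at most 2 of the 6 genes. Cdca3, an adaptor protein that promotes entry into mitosis, had 149 CPM (148 to 150) in dividing and 0.0741 CPM (0.0519 to 0.103) in resting cells. It ran from 0 to 578 CPM in dividing cells (median 53.1) and from 0 to 1.21 CPM in resting cells (median 0). It was detected in 22 of 28 dividing cells and 0 of 35 resting cells, and 23 dividing cells lay above the highest resting cell.

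At the spindle, Ckap2l, a microtubule-binding protein of the spindle poles, was likewise detected in 20 dividing cells and no resting cell, at 185 against 0.124 CPM. At the kinetochore, Cenpa, the histone variant that marks the centromere, was detected in 20 of 28 dividing cells and 1 of 35 resting cells, at 177 against 0.809 CPM. Spc25, of the complex that binds kinetochores to microtubules, was detected in 20 and 2 cells, at 175 against 0.900 CPM, and 20 dividing cells lay above the highest resting value of 9.49 CPM.

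Ncapd2, a subunit of condensin I, had the smallest contrast of the 6, at 31.1 against 3.17 CPM (log2 ratio 2.94). It was detected in 21 dividing and 3 resting cells, but a resting cell reached 100 CPM and only 2 dividing cells lay above it. Ube2c, which attaches ubiquitin for the anaphase-promoting complex, was detected in 20 and 2 cells, at 221 (220 to 223) against 2.10 CPM (1.97 to 2.23). In the 12-day cells the log2 ratios of the 6 ran from 2.92 (Ncapd2) to 7.18 (Ckap2l).

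Aurkb, the kinase of the chromosomal passenger complex, was detected in 15 of 28 dividing cells and no resting cell, at 63.4 against 0.0844 CPM. Birc5, a non-kinase member of that complex, was detected in 20 and 2 cells, at 167 against 4.71 CPM. Plk1 was detected in 14 and 0 cells, at 31.5 against 0.212 CPM. Aurka, the kinase of the spindle poles, was detected in only 8 dividing cells and 1 resting cell, at 32.9 against 0.782 CPM.

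Not all genes of this list were higher. Pttg1, securin, had 24.8 CPM in dividing and 72.1 CPM in resting cells (log2 ratio -1.51), while it was detected in 18 of 28 and 19 of 35 cells. Trip13, a remodeller of checkpoint proteins, was detected in 13 dividing cells and 1 resting cell, yet its summed CPM was 50.8 and 57.9, since that resting cell held 1434 CPM. The tubulin Tuba1b was detected in every cell of both groups and had 2799 against 1134 CPM. The rule on detection cannot count such a gene, and Tuba1b passed both 2-fold criteria. These genes, and the kinases above, were chosen after their values were seen.

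**Figure D4:**
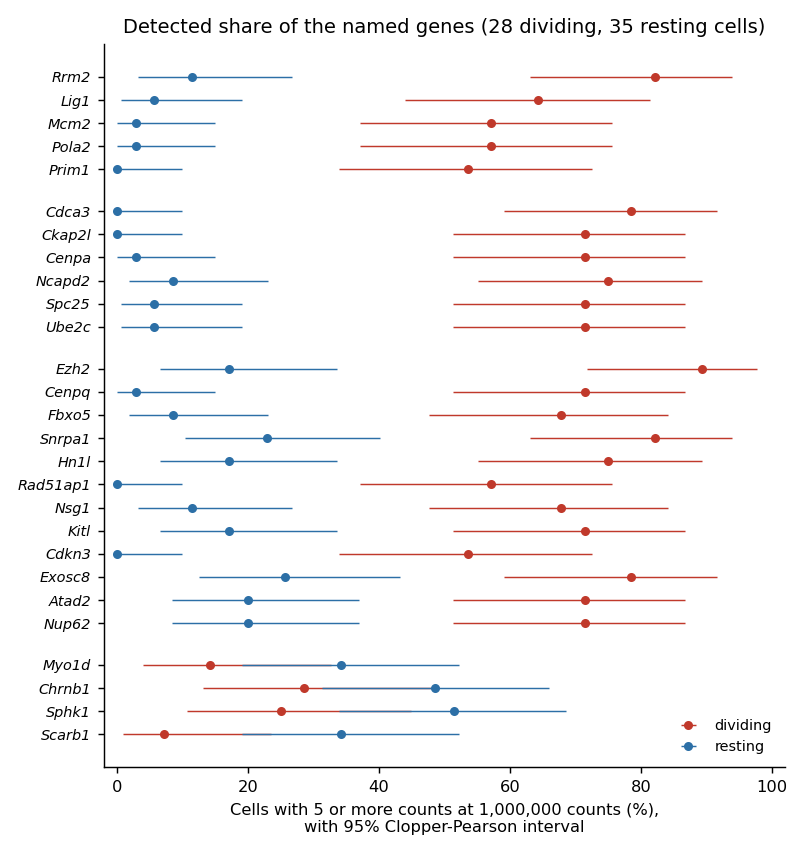
Percentage of 28 dividing and 35 resting astrocytes in which each named gene was detected (at least 5 counts at 1000000 counts), with 95% Clopper-Pearson intervals, which treat cells as independent. From top to bottom: replication genes, mitosis genes, other genes counted as higher, and the 4 genes counted as lower; the intervals of the 2 groups overlap for each of these 4.

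Since members of both lists moved together, their promoters were searched for the motifs through which such genes are known to be controlled. RefSeq windows of GRCm38.p6 were matched by symbol for 50 of the 62 replication genes (58 windows) and 86 of the 104 mitosis genes (97 windows). In the 250 bases before the start, both strands were searched for the cell-cycle homology region (CHR; TTTGAA or TTTAAA), for CCAAT, the binding motif of NF-Y, and for E2F-type strings (TTTGGCGC, TTTCCCGC, TTTGCCGC or TTTCGCGC). None of these strings contains another. A CHR string was in 45.4% of the mitosis windows, 20.7% of the replication windows and 25.2% of all 32851 windows. CCAAT was in 67%, 55.2% and 33.8%, and an E2F-type string in 6.19%, 19% and 1.86%. CHR and CCAAT together were in 36.1% of the mitosis windows, 12.1% of the replication windows and 8.78% of all windows. With the 50 bases after the start included, CHR was in 67% of the mitosis windows, 24.1% of the replication windows and 27.6% of all windows, and E2F-type strings in 31% of the replication windows and 2.26% of all. A match describes the letters only.

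The 120 bases before the start are printed below for the 6 named mitosis genes and for Rrm2 and Mcm2, to show how the strings lie in promoters of genes that were near 0 in most resting cells. All are GRCm38.p6 sequence from RefSeq, 5′ to 3′ on the strand of the gene, with whole CHR, CCAAT and E2F-type matches on either strand in capitals (TTCAAA and ATTGG are reverse-strand matches). Cdca3 lies at chr6:124830056-124830175 (+), Ckap2l at chr2:129297213-129297332 (-), Cenpa at chr5:30666766-30666885 (+), Ncapd2 at chr6:125191587-125191706 (-), Spc25 at chr2:69206214-69206333 (-), Ube2c at chr2:164769809-164769928 (+), Rrm2 at chr12:24708134-24708253 (+) and Mcm2 at chr6:88898781-88898900 (-).
Cdca3: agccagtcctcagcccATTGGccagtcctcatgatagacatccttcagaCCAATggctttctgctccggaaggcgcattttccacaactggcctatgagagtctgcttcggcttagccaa
Ckap2l: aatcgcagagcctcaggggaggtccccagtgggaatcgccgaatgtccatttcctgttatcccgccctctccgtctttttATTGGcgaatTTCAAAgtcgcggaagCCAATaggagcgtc
Cenpa: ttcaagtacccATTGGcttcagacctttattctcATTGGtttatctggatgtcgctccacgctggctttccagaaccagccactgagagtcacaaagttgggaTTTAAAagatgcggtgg
Ncapd2: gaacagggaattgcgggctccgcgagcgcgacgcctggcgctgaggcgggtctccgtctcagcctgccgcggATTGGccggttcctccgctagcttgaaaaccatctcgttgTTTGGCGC
Spc25: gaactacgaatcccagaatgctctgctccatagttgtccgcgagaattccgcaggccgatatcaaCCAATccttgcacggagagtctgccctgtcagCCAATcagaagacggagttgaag
Ube2c: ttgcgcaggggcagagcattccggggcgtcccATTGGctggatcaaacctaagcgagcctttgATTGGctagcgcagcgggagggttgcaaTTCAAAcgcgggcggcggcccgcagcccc
Rrm2: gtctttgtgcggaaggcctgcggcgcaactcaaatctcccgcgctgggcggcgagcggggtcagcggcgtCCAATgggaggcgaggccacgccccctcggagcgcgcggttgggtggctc
Mcm2: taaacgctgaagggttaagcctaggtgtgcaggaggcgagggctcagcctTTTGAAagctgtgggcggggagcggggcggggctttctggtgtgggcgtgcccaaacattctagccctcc

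Ckap2l, Cenpa and Ube2c each hold 1 CHR string and 2 CCAAT strings in the stretch shown. Cdca3 and Spc25 hold 2 CCAAT strings and no CHR string there. In the stretch shown, Ncapd2 has a CCAAT string and ends in an E2F-type string, Rrm2 holds only a CCAAT string and Mcm2 only a CHR string. In the 250 bases searched, Mcm2 also holds 1 CCAAT string, and Ncapd2 holds 1 CHR string and 3 CCAAT strings. Ckap2l and Ube2c hold 3 and 6 CCAAT strings there. Of the other named replication genes, not printed, Prim1 holds a CCAAT string, and Pola2 and the 3 windows of Lig1 hold none of the strings in the 250 bases.

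Of 26 measured cyclin D, CDK, CDK inhibitor and pocket protein genes, 9 were counted as higher and none as lower in both comparisons (median log2 ratio 0.58), a share of 34.6% beside 6.17% of all measured genes. Among cells with 4000 to 7500 detected genes 7 were counted, without Cdkn2c and Fbxo5. The 9 were Cdk2, Cdkn2c, Cdkn2d, Cdkn3, Rbl1, E2f7, E2f8, Skp2 and Fbxo5. Cdk2, the kinase partner of cyclins E and A, had 20.7 against 0.838 CPM and was detected in 13 of 28 and 2 of 35 cells. E2f7, a repressor of the E2F family, had 58.6 against 4.34 CPM and was detected in 15 and 1 cells (log2 ratio 3.48, and 2.81 without dividing 13). E2f8, its close relative, was detected in 8 and 0 cells.

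Of the 4 INK4-type inhibitors, 2 were among the higher genes. Cdkn2d, which binds CDK4 and CDK6, had 44.1 against 4.15 CPM and was detected in 17 and 6 cells, and Cdkn2c had 26.1 against 9.06 CPM in 16 and 11 cells. Cdkn2a, with 5.53 against 3.62 CPM, and Cdkn2b, with 80.8 against 109 CPM, were not counted. Cdkn3, a phosphatase that acts on CDK, was detected in 15 dividing and no resting cells. None of the 3 CIP/KIP inhibitors was counted. Cdkn1a had 255 against 214 CPM and Cdkn1b 52.4 against 41.2 CPM. Cdkn1c had 13 against 81 CPM (log2 ratio -2.55) and passed the 2-fold criteria, but it was detected in only 6 dividing and 4 resting cells.

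D-type cyclins, which carry growth factor signals to the cycle, were abundant in resting cells. Ccnd2 ran from 11.4 to 2622 CPM in dividing cells (median 1051) and from 0.561 to 6043 CPM in resting cells (median 1605), with 1147 against 2085 CPM in the summed counts (log2 ratio -0.86). Ccnd1 had 1727 against 2458 CPM (log2 ratio -0.51) and Ccnd3 60 against 85.1 CPM (log2 ratio -0.50). None of the 3 was counted as lower, and all were detected in most cells of both groups. The values of both groups overlapped widely.

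Of 17 measured histone genes, 2 were counted as higher (11.8%, beside 6.17% of all measured genes): H2afz, with 451 against 92.8 CPM, and H2afx, with 51.1 against 11.8 CPM. The replication-dependent Hist1h1b was detected in 4 dividing cells and no resting cell. Among cells with 4000 to 7500 detected genes, Hist1h1b was counted as higher over all ages and H2afz was not. At 12 days within these limits only H2afx was higher, and H1f0 was lower. The libraries were made from polyA RNA, and the part of this in the histone counts was not tested.

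Outside the replication and mitosis lists and the 6 choosing genes, 841 genes were counted as higher. The 12 named by the rule, those with the largest difference in detected share in both comparisons, include several with known ties to the cycle. Ezh2, the histone methyltransferase of Polycomb repressive complex 2, was detected in 25 of 28 dividing and 6 of 35 resting cells. It ran from 0 to 746 CPM in dividing cells (median 30.5) and from 0 to 352 CPM in resting cells (median 0.153), with 75.5 (74.6 to 76.3) against 9.19 CPM (8.92 to 9.46) summed. Its log2 ratio was 2.91, and 2.32 without dividing 10, its highest cell.

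Cenpq, of the inner kinetochore, was detected in 20 dividing cells and 1 resting cell, at 116 against 1.10 CPM. Fbxo5, an inhibitor of the anaphase-promoting complex, was detected in 19 and 3 cells, at 260 against 19.4 CPM, and a resting cell held as much as 1520 CPM. Rad51ap1, a protein of DNA repair by recombination, was detected in 16 dividing and no resting cells, at 66.5 against 0.0412 CPM. Atad2, a chromatin-binding ATPase, was detected in 20 and 7 cells, at 255 against 14.0 CPM.

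The remaining genes of the 12 have general roles or none in the cycle that is firmly known. Snrpa1, of the U2 splicing particle, was detected in 23 and 8 cells at 74.4 against 13.4 CPM, and Exosc8, of the RNA exosome, in 22 and 9 cells at 110 against 12.0 CPM. Nup62, of the nuclear pore, was detected in 20 and 7 cells at 30.5 against 10.3 CPM. Hn1l was detected in 21 and 6 cells at 151 against 16.3 CPM, with a log2 ratio of 3.13 that was 2.12 without dividing 1.

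Kitl, the ligand of the receptor Kit, was detected in 20 of 28 dividing and 6 of 35 resting cells and ran from 0 to 1398 CPM (median 32.3) against 0 to 384 CPM (median 0). Its log2 ratio of 2.00 was 1.08 without dividing 1, which held the 1398 CPM, and 0.68 among cells with 4000 to 7500 detected genes. Nsg1, an endosomal protein best known from neurons, was detected in 19 and 4 cells at 38.6 against 5.99 CPM, and 7 dividing cells lay above every resting cell.

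**Figure D5:**
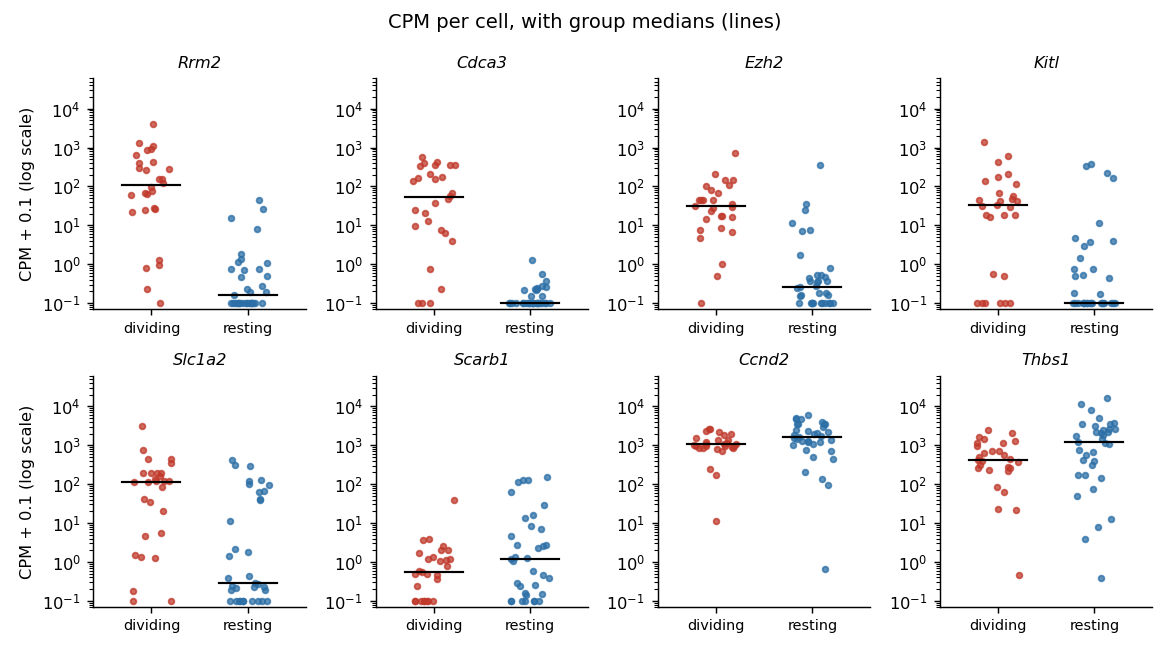
CPM of 8 genes in each of 28 dividing and 35 resting astrocytes (vertical axes, log scale, 0.1 CPM added; lines are group medians). Rrm2 and Cdca3 leave most resting cells near 0, Ezh2, Kitl and Slc1a2 are spread over the same range in a few resting cells, and Ccnd2, Thbs1 and Scarb1 have the higher median in resting cells.

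Of the 7 genes lower in both comparisons, 4 reached 10 CPM in a group and were named. The other 3, Mxd4, Zfp777 and Pkdcc, had at most 5.42 CPM in a group (Pkdcc, resting cells). Scarb1, the receptor for high-density lipoprotein, was detected in 2 of 28 dividing and 12 of 35 resting cells, at 3.02 (2.85 to 3.19) against 19.1 CPM (18.7 to 19.5). It ran from 0 to 40.1 CPM in dividing cells (median 0.465) and from 0 to 151 CPM in resting cells (median 1.06). Its log2 ratio of -2.32 was -0.78 when cells with a sum from 100 CPM were taken as dividing. Among 12-day cells it was detected in 0 of 21 and 11 of 32 cells.

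Sphk1, which makes sphingosine 1-phosphate, was detected in 7 dividing and 18 resting cells, at 4.85 against 43.4 CPM (log2 ratio -2.92, and -2.21 without resting 7, which held 756 CPM). Myo1d, an unconventional myosin, was detected in 4 and 12 cells at 3.30 against 26 CPM. Chrnb1, a subunit of the muscle-type acetylcholine receptor, was detected in 8 and 17 cells at 20 against 61.1 CPM. Its log2 ratio of -1.56 was -0.80 without resting 14, which held 1760 CPM.

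Astrocyte genes were present in both groups. Of 19 measured astrocyte markers, 2 were counted as higher in both comparisons and none as lower (median log2 ratio 0.21, but -0.04 with edgeR TMM and -0.23 with DESeq2 scaling), a share of 10.5% beside 6.17% of all measured genes. A dividing cell had 6 to 19 of 20 markers detected (median 16) and a resting cell 1 to 18 (median 11). The shared marker Slc1a3, the glutamate transporter GLAST, was detected in all 28 dividing and 31 of 35 resting cells, at 1634 against 797 CPM. Sox9, the glial transcription factor, was detected in 26 and 31 cells at 397 against 312 CPM, and Aqp4, the water channel, in 22 and 16 cells at 220 against 211 CPM.

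The markers counted as higher were Slc1a2 and Fgfr3. Among cells with 4000 to 7500 detected genes they were Slc1a2 and Aldh1l1, and with those of 12 days alone only Slc1a2. The median log2 ratio of the markers in that setting was 0.004 over all ages and 0.24 at 12 days. Slc1a2, the glutamate transporter GLT-1, was detected in 21 of 28 dividing and 12 of 35 resting cells, with 300 (298 to 302) against 70.1 CPM (69.4 to 70.9). It ran from 0 to 3049 CPM (median 115) against 0 to 416 CPM (median 0.190). Its log2 ratio of 2.08 was 0.79 without dividing 18, which held the 3049 CPM and had only 2 of the 6 genes detected. Fgfr3, a receptor of fibroblast growth factors, was detected in 22 and 18 cells at 110 against 34 CPM.

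Gfap, the intermediate filament of astrocytes, was detected in 16 of 28 and 13 of 35 cells, at 76.7 against 199 CPM, and at 94.9 against 114 CPM among the 12-day cells. It was not counted as apart. S100b had 19.1 against 59.3 CPM and was detected in 8 and 9 cells.

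Of 27 measured radial glia and progenitor genes, 2 were counted as higher in both comparisons (7.41%, beside 6.17% of all measured genes), and Id4 also was among the 12-day cells. Among cells with 4000 to 7500 detected genes only Prom1 was, and with those of 12 days alone none. Fabp7, a fatty acid binding protein of radial glia, had 1817 against 860 CPM and was detected in 26 and 25 cells. Prom1, the stem cell surface protein CD133, was detected in 19 of 28 and 8 of 35 cells at 122 against 29.7 CPM, with log2 ratios of 2.01 over all ages and 1.14 among 12-day cells. Vim, Nes and Sox2 were detected in most cells of both groups and not counted as apart. Of 24 measured genes of reactive astrocytes, only Psmb8 was counted as higher, and its log2 ratio of 1.13 was -0.15 without dividing 8. None of the 24 was counted among the 12-day cells. Hspb1 was counted as lower among 12-day cells with 4000 to 7500 detected genes. Without cells of over 1000 CPM of microglia markers, Ptx3 was higher and Hspb1 lower at 12 days.

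Growth and synthesis genes gave few differences. None of 30 ribosomal protein genes, 35 respiratory chain genes or 21 glycolysis genes was counted as higher or lower (median log2 ratios 0.01, 0.07 and -0.27). With DESeq2 scaling, which set the median of all genes at -0.14, the first 2 medians were -0.42 and -0.37. Among cells with 4000 to 7500 detected genes the glycolysis gene Eno2 was counted as lower, over all ages and at 12 days. Of 32 genes of ribosome making and Myc-linked growth, 3 were higher (9.38%, beside 6.17% of all measured genes), and Nop2 also was among the 12-day cells. In the comparison of cells with 4000 to 7500 detected genes 5 were higher, Dkc1, Bop1, Gart, Shmt2 and Mthfd2, and Ppat was not. Gart, of purine synthesis, had 52.4 against 12.7 CPM and was detected in 19 and 9 cells. Ppat, the first enzyme of that pathway, had 55.9 against 11.3 CPM in 13 and 4 cells, with a log2 ratio of 2.21 that was 1.05 without dividing 2. Mthfd2, a mitochondrial folate enzyme, had 46.7 against 13.7 CPM in 14 and 7 cells.

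No gene of cholesterol synthesis or of the matrix was counted over all ages. Of all 15942 measured genes, 7674 had a log2 ratio below 0. Of 22 cholesterol genes none was counted as higher or lower, and 20 had a log2 ratio below 0 (median -0.53, and -0.13 by the average CPM per cell). Of 28 extracellular matrix and contractile genes none was counted, and 21 had a log2 ratio below 0 (median -0.40, and -0.61 among 12-day cells). With the 2-fold criteria alone 5 of the 28 were lower, beside 9.71% of all measured genes.

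The most abundant of these 5 was Thbs1, thrombospondin 1, a matrix protein by which astrocytes promote synapses. It ran from 0.370 to 2470 CPM in dividing cells (median 429) and from 0.289 to 16604 CPM in resting cells (median 1241), and was detected in 27 of 28 and 33 of 35 cells. Its summed CPM was 603 (601 to 606) against 2050 (2046 to 2054), a log2 ratio of -1.76 over all ages and -2.04 among 12-day cells. Most cells of both groups lay in a common range, and the highest values were all of resting cells. Thbs1 was chosen after its values were seen.

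Few interferon, p53 or growth arrest genes were counted. Of 18 measured interferon response genes 2 were higher in both comparisons (11.1%, beside 6.17% of all measured genes). With the 2-fold criteria alone 7 were higher and 1 lower (38.9% higher, beside 14.3%), and among the 12-day cells 5 and 3. Irf9, a transcription factor of that response, had 36.9 against 8.38 CPM in 15 and 5 cells (log2 ratio 2.01, and 1.35 without dividing 18). Of 20 p53 targets 1 was higher (5%), Pmaip1, a protein that promotes cell death, at 38.2 against 8.08 CPM in 13 and 8 cells. It was not counted among cells with 4000 to 7500 detected genes, and Ei24 was also counted among the 12-day cells. In 12-day cells within those limits no p53 target was counted as higher. Bax and Bbc3 were counted as lower there, 10% beside 1.66% of all measured genes. Of 25 growth arrest genes 1 was higher (4%) and none lower. That gene was Btg1, an antiproliferative protein, at 50.8 against 22.5 CPM, with a log2 ratio of 0.79 without dividing 2. It was not counted among the 12-day cells, where Ndrg2 was, nor among cells with 4000 to 7500 detected genes. Over all ages none of the 25 was counted in that setting. At 12 days Pdk4 was counted as higher there and Klf9 as lower. None of 23 immediate early and ERK feedback genes was counted over all ages or at 12 days. Among cells with 4000 to 7500 detected genes Ier2 was counted as higher. With those of 12 days alone, Dusp4 and Spry4 were also counted as lower.

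Over all ages, no fibroblast (14), oligodendrocyte precursor (6), microglia (12), endothelial (6) or neuron marker (18) that was measured was counted as higher or lower. Pdgfra, a defining marker of oligodendrocyte precursors, was detected in no dividing cell, which allows a share of up to 10.7% (3 of 28 cells), and in 5 resting cells, at 0.187 against 16.5 CPM. Sox10 was listed at 0 CPM in dividing cells, and Gpr17 was near 0 in both groups. The list as a whole did not follow Pdgfra. A dividing cell had a median of 3 of these markers detected and a resting cell 2. Their summed CPM ran from 0.609 to 785 (median 285) in dividing cells and from 0.343 to 1517 (median 168) in resting cells. Summed microglia markers were at most 1335 CPM in dividing cells and reached 6408 and 3580 CPM in resting 24 and 25. Without these 3 cells, 52 replication and 85 mitosis genes were higher, the median log2 ratio of the microglia markers was 1.54, where it was below 0 with them, and C1qb and Bcan were counted as higher among the 12-day cells. Fcer1g and Celf4 were counted as higher among cells with 4000 to 7500 detected genes. Summed fibroblast markers ran from 640 to 23097 CPM in dividing and from 200 to 25537 CPM in resting cells. Dividing 22 and 10, both of 7 days, held 23097 and 19428 CPM. Among the 12-day cells the highest dividing cell had 5788 CPM, and 7 resting cells lay above it. The median log2 ratio of the fibroblast markers was -0.13 over all ages and -0.57 at 12 days. Summed neuron markers ran from 7.66 to 2729 CPM in dividing and from 0.0616 to 4152 CPM in resting cells. Most of the neuron marker RNA was Stmn2, with 408 against 802 CPM, while Snap25 and Dcx were below 1 CPM in both groups. The part of these markers in other results was not tested.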

How the data were processed

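Counts of reads per gene were deposited by the authors as raw whole numbers, with no normalization, for 21956 gene rows and 158 libraries. Per the labels, individual cells gave polyA RNA and libraries were made with a stranded kit. The submitters' processing notes name bcl2fastq, STAR, HTSeq and mm10 (GRCm38). For the aligner version, the annotation and the strand setting, nothing is given in the sources used here, so overlapping and antisense genes may share reads. A few rows with date-like names (27) were left unused.

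Groups, limits, gene lists and the members of the lists were chosen with earlier results of these data known. CPM was computed from each library's total over all rows, and detection after thinning to 1000000 counts (seed 7). A gene was measured with at least 10 counts over both groups and a count in at least 3 cells. Exact Poisson intervals (95%) cover counting error only, and Clopper-Pearson intervals (95%) treat cells as independent. The limit for a gene detected in 0 cells is 3 cells of the group, which is lower than the Clopper-Pearson bound. Among genes counted as higher or lower in both comparisons with at least 10 CPM in a group, those with the largest difference in detected share were named. They were 6 per cell-cycle list, up to 12 per direction outside these lists (predicted genes passed over), and up to 3 of each other list as values. Some results are not reported here. No 2 astrocyte libraries correlated above 0.884 (log2 CPM). Scaling alternatives used edgeR 4.0.16 and DESeq2 1.42.0, the rest Python 3.11.15. The counting rule was also run on simulated data. These were drawn without the difference in detected genes between the groups, so they cannot bear out the counts given here.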

Additional observations from a re-analysis of the deposited data

Results flagged for a closer look

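The 6-gene sum that chose the dividing astrocytes also reached 200 CPM in neuron libraries, which the comparison above does not use. It did so in 4 of 15 cultured cortical neuron libraries (range 0 to 3650 CPM, median 3.53) and in 1 of 17 CA1 slice neuron libraries (highest 263 CPM, median 0). In the cultured hippocampal, CA3 slice and cortical slice neurons, none of 8, 5 and 27 libraries did so. What these libraries hold was not tested.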

How the results depend on the processing

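There were 18 alternatives planned and 3 chosen after seeing the data. Those planned include leaving out a gene's highest cell and widening the promoter window, which give no counts of genes. Of 152 counts of genes under the others, 122 stayed within 1.5 times the value reported. The counts for the replication and mitosis lists left that range only where detected shares had to differ by 40 percentage points: 28 replication genes over all ages and 26 in 12-day cells, and 54 mitosis genes in 12-day cells. Genes higher over all ages (983) were 622 under DESeq2 scaling, which moved the median log2 ratio of all genes to -0.14 from 0.02. With 40 points they were 212 (189 in 12-day cells), and with no rule on detection 2275 (2231). Genes lower in dividing cells, 9 over all ages and 30 at 12 days, depended most on the setting. They were 5 and 19 with a pseudocount of 5 CPM, 0 and 0 with 40 points, 1548 and 1963 with no rule on detection, 35 and 54 with dividing cells from 500 CPM, and 16 and 49 with resting cells below 5 CPM. Without cells of more than 20000000 counts they were 34 and 91, and without cells richer in another cell type's markers 49 and 148. Among cells with 4000 to 7500 detected genes they were 117 and 235, and without cells of over 1000 CPM of microglia markers 16 and 62. Over all ages only, they were 5 with at least 10 CPM in a group or dividing cells from 100 CPM, 14 with detection from 1 count and 18 from 10 counts. The causes were not tested. Of 38 named genes counted as apart, 30 stayed at least 2-fold apart in every setting. Psmb8 reversed, to -0.15, without its highest cell. No paired analysis was possible because the labels pair no cells of the groups and no test was made.

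Counting error was small beside the spread between cells, since the groups summed to 417577539 and 485688590 counts. With 1 sample a group, differences between cultures or animals could not be measured.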
